A study of Rattus norvegicus with 65 samples.

Results

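This report compares the livers of rats in the group titled DCP long with those in the group titled DCP short: 3 rats against 3, 6 of the 65 rats of the series and 6 of the 24 rats of its test set. The rats were assigned to the groups by sample title and not by any measured value. The members and the gene lists were, however, chosen with earlier results of these data known. All were male Sprague-Dawley rats, 6 weeks old, with 1 Affymetrix array of liver RNA each. The short group is labelled 1X50 and 3 h, and the long group 3X50 and 72 h, where the dose of 50 has no unit. The treatment protocol says instead that repeated groups received 3 doses and were autopsied 24 h later. Number of doses, time since the last dose and hour of the day therefore cannot be told apart, and the groups are called short and long. The design text lists 1,3-dichloro-2'-propanol among its hepatocarcinogens, and no other listed name fits the abbreviation DCP, but the labels do not pair them. The other 18 rats of the test set received the compounds titled ME (dose 300), SN (50) and Urethane (500), again without a unit, each as a short and a long group of 3 rats with the same labelled times and dose numbers. The test set has no untreated group, and the control groups of the other sets, which were on another scale, enter only an alternative fit of all 65 arrays and no comparison.

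1,3-dichloro-2'-propanol is a chlorinated alcohol known as a by-product of food processing and as a liver toxicant, and its breakdown products react with glutathione. Liver cells meet such reactive chemicals with several known programs. NRF2 switches on genes of glutathione and redox repair. ATF4 switches on genes of amino acid supply and stress arrest. Immediate early genes such as Atf3, Egr1 and Jun answer within minutes to hours. After loss of liver cells, hepatocytes, which seldom divide in the adult, can re-enter the cell cycle. In male rats, pulses of growth hormone also keep a set of male-biased liver genes active.

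Values are log2 signals as deposited. Differences are DCP long minus DCP short on that log2 scale with their standard error (SE) from limma, and genes with an adjusted p (Benjamini-Hochberg) under 0.05 count as called. Of 10213 genes tested, 4088 were called (40.0%), 2639 of them higher (25.8%) and 1449 lower (14.2%) in DCP long, so that a share of called members near these values says little about a list. The median difference over all tested genes was 0.06. A difference of at least 1, a doubling or halving, was reached by 510 called genes (4.99%), of which 237 were higher (2.32%) and 273 lower (2.67%). In 5007 genes (49.0%) no rat of one group lay within the range of the other. Nothing in the labels ties the rats to separate experiments. The p-values rest on the spread between rats of the same group, pooled over the 8 groups of the test set. They do not measure a spread between experiments. Where DCP long varied more than the other groups, the pooled SE understates its spread. The standard deviation (SD) of Gstp1 was 1.10 in DCP long and 0.08 to 0.24 in the other groups. For H19 it was 1.78 against 0.11 to 0.41. Across all genes, arrays correlated with r of 0.987 to 0.992 within DCP short, 0.985 to 0.989 within DCP long and 0.948 to 0.957 between them. The 3′ minus 5′ signal of the Gapdh control probe sets, a measure of RNA integrity, was 0.597 ± 0.075 in DCP short and 0.445 ± 0.143 in DCP long (SD, n = 3). The 5S rRNA control probe set was 6.31 to 6.98 in the DCP rats, 4.94 to 5.71 with ME and SN and 5.82 to 6.54 with Urethane. The highest signal of an array averaged 14.45 in DCP short and 14.40 in DCP long, against 14.62 to 14.70 in the groups of the other compounds. The part of these array values in the results was not tested.

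For most of the large differences, a DCP group lay outside the range of the 18 rats given ME, SN or Urethane. These genes were selected by a difference between the same DCP rats, which favours a DCP group at an extreme. The share over all tested genes was not counted, so the counts have no background. Among the 273 genes lower in DCP long, all 3 DCP short rats alone were outside that range for 172, and all 3 DCP long rats alone for 29. Among the 237 genes higher in DCP long, DCP long alone was outside for 131 and DCP short alone for 37. A further 62 genes of each direction had neither group outside the range, and 10 of the lower and 7 of the higher genes had both.

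**Figure D1:**
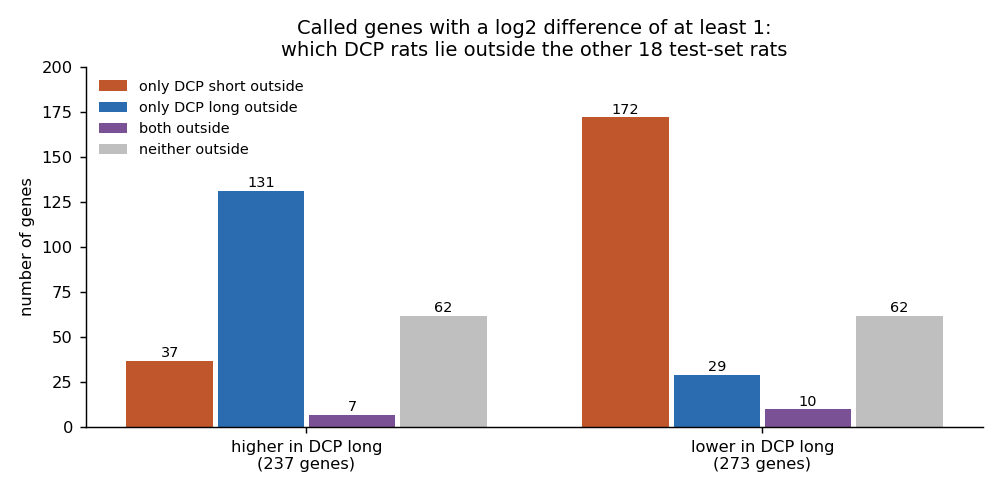
Number of called genes with a log2 difference of at least 1, by direction and by which DCP rats (all 3 of a group) lie outside the range of the other 18 rats of the test set. Of the genes lower in DCP long, 172 of 273 have only the short rats outside, and of those higher, 131 of 237 have only the long rats outside. The share over all tested genes was not counted.

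Immediate early genes, which encode transcription factors and phosphatases made quickly after a stimulus, were lower in DCP long almost throughout. Of 21 tested members 18 were lower and none was higher, with a median difference of -1.83. Maff, a small MAF protein that binds the same DNA elements as NRF2, stood at 11.08, 11.12 and 11.18 in the short rats and 4.25, 4.11 and 4.31 in the long rats. The groups were far apart, and the long rats lay within the 3.97 to 6.36 of the other 18 rats. The difference was -6.91 ± 0.33 (adjusted p = 2.66e-11), with long rats below the log2 of 5.65 that the filter on low values used, so the size of the difference depends on a weak signal. Atf3, a stress-induced repressor, was at 11.50, 11.61 and 11.93 in the short rats and 5.10, 5.18 and 5.43 in the long rats. No rat of either group came near the other group, and the difference was -6.44 ± 0.60 (adjusted p = 1.94e-07). The long rats were below 5.65 for Atf3 too, so this size also depends on a weak signal.

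Egr1, a zinc finger growth factor response gene, was at 12.71, 12.27 and 12.73 in DCP short against 8.60, 7.20 and 7.76 in DCP long (-4.72 ± 0.54, adjusted p = 2.08e-06). Egr1 was also high in some of the rats given other compounds, which reached 12.32. Jun, the partner of Fos in AP-1, was 12.04, 12.02 and 12.29 against 8.55, 8.27 and 8.74 (-3.60 ± 0.18). Myc, the growth regulator, was 11.82, 12.04 and 12.08 against 8.41, 8.84 and 7.38 (-3.78 ± 0.52), and Klf6 differed by -3.87 ± 0.19. Fos was less even, with short rats at 7.85, 5.12 and 8.22 and long rats at 4.06, 3.90 and 5.04. The middle short rat was thus close to the highest long rat (-2.73 ± 0.75, adjusted p = 0.00695). Dusp8, a phosphatase that turns off JNK and p38 signalling and is outside the list, was at 7.99, 7.61 and 8.18 in the short rats and 3.87, 3.60 and 3.91 in the long rats. For Fos and Dusp8 the long rats were below the filter value of 5.65, so these sizes depend on a weak signal too.

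Genes of amino acid starvation and the integrated stress response, many of them ATF4 targets, were lower more often than higher. Of 32 tested members 15 were lower and 5 higher in DCP long, with a median of -0.40. The lower ones included regulators of arrest and death, transporters of amino acids and tRNA synthetases. Ddit3 (CHOP) was at 9.84, 9.77 and 10.77 in the short rats and 7.63, 8.11 and 8.36 in the long rats (-2.09 ± 0.22, adjusted p = 9.07e-07). Chac1, which degrades glutathione, was at 10.97, 10.52 and 11.35 against 7.95, 8.72 and 7.74 (-2.81 ± 0.23). Trib3, a pseudokinase that curbs ATF4, was at 10.93, 10.46 and 10.74 against 8.57, 9.77 and 8.54 (-1.75 ± 0.26). All 3 long rats still had more Chac1 than any of the other 18 rats, whose highest value was 7.54. Gdf15, a stress hormone that suppresses appetite, was at 11.02, 10.53 and 10.86 against 6.17, 6.21 and 6.33 (-4.56 ± 0.16, adjusted p = 2.64e-13).

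The 5 members that were higher in DCP long were Phgdh, Asns, Psat1, Wars1 and Aldh1l2. Phgdh, the first enzyme of serine synthesis, was higher by 1.70, Asns, asparagine synthetase, by 1.43 ± 0.40 (adjusted p = 0.0076) and Psat1, also of serine synthesis, by 0.93. Asns stood at 8.89, 7.81 and 8.70 in DCP short and 9.63, 10.20 and 9.85 in DCP long. These higher calls were the less firm side of the list, because without DCP short replicate 2 none of the 5 passed and Asns had an adjusted p of 0.0528. With any other DCP rat left out in turn 2 to 4 passed, and 3 did with no filter or in 1 fit of all 65 arrays.

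The upstream sequences of Chac1 and Trib3 are shown because both hold a match to the ATF4 and C/EBP element TGATGNAA. They are the 250 bases before the annotated RefSeq start, build GRCr8, 5′ to 3′ on the gene's strand, with matches on either strand in capitals. Chac1 lies on the plus strand at chr3:126795881-126796130 and Trib3 on the minus strand at chr3:161275534-161275783.
Chac1: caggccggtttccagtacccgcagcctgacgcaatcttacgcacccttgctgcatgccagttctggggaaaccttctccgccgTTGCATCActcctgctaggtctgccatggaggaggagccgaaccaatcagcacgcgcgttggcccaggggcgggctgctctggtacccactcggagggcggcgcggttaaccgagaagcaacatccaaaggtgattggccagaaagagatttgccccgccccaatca
Trib3: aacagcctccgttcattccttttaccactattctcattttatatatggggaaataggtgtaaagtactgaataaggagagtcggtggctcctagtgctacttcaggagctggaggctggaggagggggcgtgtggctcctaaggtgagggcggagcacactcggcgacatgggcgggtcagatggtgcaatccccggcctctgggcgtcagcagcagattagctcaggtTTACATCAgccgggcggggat
Of the 15 lower members of the list 14 had a promoter in the table, and 4 of them (28.6%) held the element, against 3.27% of all 27457 promoters and 1.79% of those of tested genes. Among all tested members, fallen or not, 7 of 28 promoters held it, a like share. The windows of Ddit3 and Slc7a11 held no match. A match describes these letters and is not evidence of binding.

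NRF2 and glutathione genes moved in both directions, with 11 lower and 8 higher of 33 tested and a median of 0.01. Srxn1, which repairs oxidised peroxiredoxins, was at 12.81, 12.85 and 12.94 in the short rats and 8.44, 8.29 and 8.24 in the long rats (-4.55 ± 0.24, adjusted p = 7.17e-11). Another Srxn1 probe set gave -4.71, and the weakest of its 3 gave 0.14 at a mean signal of 3.76. Hmox1, which breaks down heme, was at 13.06, 13.32 and 12.95 against 8.86, 8.75 and 8.74 (-4.32 ± 0.43). Slc7a11, the cystine importer that feeds glutathione synthesis, was at 9.28, 8.69 and 8.42 against 5.51, 6.31 and 5.84 (-2.91 ± 0.27). Gclc, the rate-limiting enzyme of glutathione synthesis, was lower (-1.20 ± 0.17). Long rats lay inside the range of the other 18 rats for Srxn1, Hmox1 and Gclc, and Slc7a11 was still above it in 2 of the 3.

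Nqo1, another well-known NRF2 target, was at 11.21, 11.38 and 11.46 in the short rats and 11.34, 11.17 and 11.08 in the long rats, and was not called (-0.15 ± 0.25, adjusted p = 0.669). The share of higher members was near that of all genes. Gsta3, a glutathione transferase, was at 10.12, 9.81 and 9.95 against 11.00, 11.23 and 10.93 (1.09 ± 0.31, adjusted p = 0.00858). Gstp1, the glutathione transferase used as a marker of preneoplastic rat liver foci, was at 8.85, 9.16 and 8.71 in DCP short and 11.38, 12.81 and 10.64 in DCP long. The difference was 2.70 ± 0.32 (adjusted p = 2.94e-06). Both DCP groups lay above the 7.77 to 8.45 of the other 18 rats, so Gstp1 was already higher in the short rats and higher again in the long rats. Over the 6 compounds outside the test set its long minus short difference ran from -0.42 to 1.93, without a test. Without DCP long replicate 1 the count of higher members was 5 in place of 8.

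The Gstp1 window is printed because this gene carried the largest rise of the list. It covers the 250 bases before the RefSeq start on the minus strand at chr1:210769706-210769955, with a match to the antioxidant response element core TGACNNNGC in capitals.
Gstp1: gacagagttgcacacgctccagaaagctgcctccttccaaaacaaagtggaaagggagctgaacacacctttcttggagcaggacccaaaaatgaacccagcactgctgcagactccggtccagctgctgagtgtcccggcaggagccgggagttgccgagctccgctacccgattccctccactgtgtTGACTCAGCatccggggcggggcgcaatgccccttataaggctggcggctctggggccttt
The match begins 61 bases before the start. This core occurred in 10.2% of all promoters of that length. It occurred in 2 of the 10 promoters found for the 11 lower members and in 6 of the 30 for all tested members (20.0% of each), and the Srxn1, Slc7a11, Txnrd1 and Gclc windows held none.

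p53 targets were mostly lower, with 10 lower and 2 higher of 19 tested and a median of -0.68. Gdf15 is among the lower members and also counts in the amino acid starvation list. Gadd45a, a DNA damage inducible arrest gene that ATF4 also induces, was at 11.64, 11.41 and 11.31 in the short rats and 9.18, 9.33 and 8.26 in the long rats (-2.52 ± 0.31, adjusted p = 4.06e-06). Mdm2, the ubiquitin ligase of p53, was at 9.78, 9.89 and 10.04 against 8.45, 8.22 and 8.65 (-1.46 ± 0.11, adjusted p = 5.82e-09). Ccng1 was lower (-0.99 ± 0.15). Cdkn1a, the p21 inhibitor of cyclin-dependent kinases, was at 10.78, 10.19 and 10.70 against 9.53, 8.87 and 8.52 (-1.59 ± 0.39, adjusted p = 0.00339). Cdkn1a also differed by -1.39 with ME and by -2.64 with SN between long and short. Mgmt, which repairs alkylated guanine, was at 9.10, 8.99 and 8.55 in the short rats and 8.75, 9.77 and 9.09 in the long rats, and was not called (0.32 ± 0.24).

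Heat shock genes changed less as a group, with 5 of 18 lower and 2 higher, of which 1 was left without DCP long replicate 3, short replicate 1 or short replicate 2. Zfand2a, a proteasome-linked gene induced by arsenite and heat, was outside that list and among the 12 lowest differences, from 11.91, 11.83 and 12.08 in the short rats to 6.66, 6.09 and 6.16 in the long rats (-5.64 ± 0.32). Hspb8, a small chaperone, was at 11.43, 11.66 and 11.49 against 9.23, 9.48 and 9.20 (-2.23 ± 0.14). Its short rats lay above the 9.33 to 10.46 of the other 18 rats. The inducible chaperone Hspa1a varied from 6.89 to 9.70 among the short rats and lost its call without DCP short replicate 1, short replicate 3 or long replicate 2 (adjusted p = 0.0558, 0.114 and 0.0527).

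Ribosome biogenesis genes were lower throughout where they were called. Of 40 tested 30 were lower and none higher, with a median of -0.46. Against the other compounds 16 of the 40 had a smaller value for DCP, beside 11.0% of all genes, and none a larger one. Nop58, a box C/D snoRNP core protein, was at 11.29, 10.61 and 11.16 in DCP short and 9.49, 9.38 and 9.26 in DCP long (-1.64 ± 0.15, adjusted p = 1.94e-07). Gar1, of the box H/ACA snoRNPs, differed by -1.43 ± 0.13 and Gnl3, nucleostemin, by -1.31 ± 0.13. The polyamine breakdown enzyme Sat1 was lower too, at 12.31, 12.61 and 12.44 against 10.87, 10.75 and 10.76. So was Tnfrsf12a, the TWEAK receptor induced by tissue injury, at 10.40, 10.36 and 10.87 against 6.59, 5.98 and 6.31 (-4.25 ± 0.20).

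**Figure D2:**
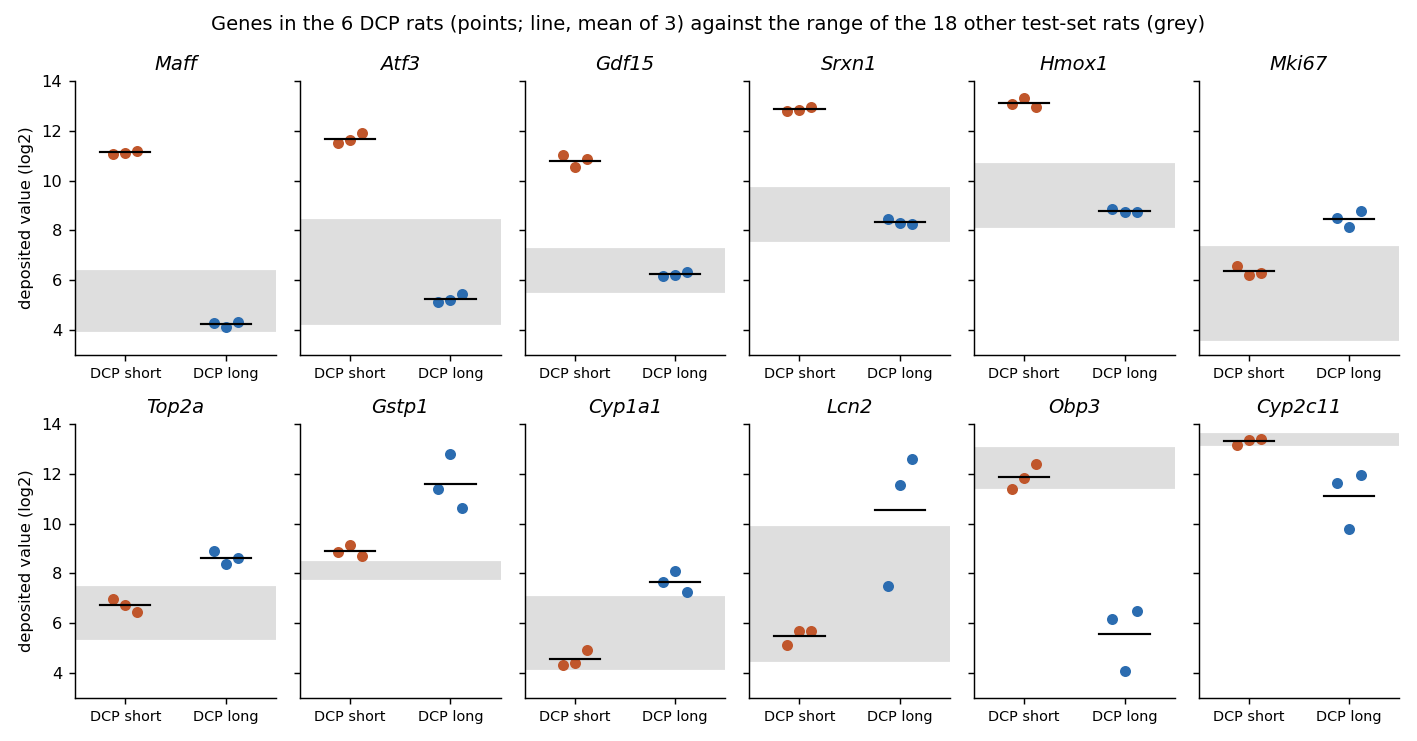
Deposited log2 values of 12 genes in each DCP short rat (orange) and DCP long rat (blue), with the mean of 3 as a line and the lowest to highest value of the other 18 rats of the test set as a grey band. Short rats stand above the band for Maff, Atf3, Gdf15, Srxn1 and Hmox1, and long rats stand outside it for Mki67, Top2a, Gstp1, Cyp1a1, Obp3 and Cyp2c11, while for Lcn2 only 2 of the 3 do.

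Genes of S phase and mitosis were higher in DCP long almost throughout. Of 40 tested members 34 were higher and none was lower, with a median difference of 1.35 beside 0.06 over all genes. Mki67, which encodes the proliferation antigen Ki-67, was at 6.57, 6.21 and 6.30 in DCP short and 8.49, 8.12 and 8.76 in DCP long (2.10 ± 0.42, adjusted p = 0.000607). Top2a, the topoisomerase of dividing cells, was at 6.97, 6.72 and 6.45 against 8.89, 8.38 and 8.63 (1.92 ± 0.30). Cdk1, the mitotic kinase, was at 8.18, 7.45 and 7.32 against 9.42, 9.29 and 9.65 (1.81 ± 0.40, adjusted p = 0.00134). In each of these genes every long rat was above every short rat and above all 18 other rats.

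Ccna2, cyclin A2, differed by 1.96 ± 0.48, Hmmr, a spindle protein, by 1.96 ± 0.33 and Ttk, a spindle checkpoint kinase, by 1.95 ± 0.26. Kif20b, a kinesin of cell division outside the list, differed by 2.11 ± 0.35. The weaker of the 2 Ttk probe sets gave 0.14, and with the other the short rats were below the filter value of 5.65. The 6 members not called were Ccnd1, Ccne1, E2f1, Cdt1, Pcna and Mcm7, which act at entry into S phase or at replication. Ccnd1, cyclin D1, was at 7.91, 7.52 and 7.96 in the short rats and 8.89, 7.98 and 7.96 in the long rats (0.48 ± 0.25, adjusted p = 0.139). Without DCP long replicate 1, 2 members were called lower, and 1 was without DCP short replicate 3 or after median centring. A stricter filter, which tests fewer genes, left 20 higher members.

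Upstream sequences of Cdk1, Mki67 and Hmmr are shown because they hold both elements that mitotic genes are known for, CCAAT boxes and the cell cycle homology region (CHR) element TTTGAA. Capitals mark CCAAT and TTTGAA on either strand (ATTGG and TTCAAA are their reverse complements), and 1 pair of matches in Mki67 overlaps. Each is the 250 bases before the RefSeq start, build GRCr8. Cdk1 lies on the plus strand at chr20:19265043-19265292, Mki67 on the minus strand at chr1:199952594-199952843 and Hmmr on the minus strand at chr10:25665216-25665465.
Cdk1: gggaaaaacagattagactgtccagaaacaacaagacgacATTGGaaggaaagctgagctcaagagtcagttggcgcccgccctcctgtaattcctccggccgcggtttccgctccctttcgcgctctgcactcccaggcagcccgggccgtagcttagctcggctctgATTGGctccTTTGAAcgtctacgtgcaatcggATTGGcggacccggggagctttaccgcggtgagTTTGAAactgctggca
Mki67: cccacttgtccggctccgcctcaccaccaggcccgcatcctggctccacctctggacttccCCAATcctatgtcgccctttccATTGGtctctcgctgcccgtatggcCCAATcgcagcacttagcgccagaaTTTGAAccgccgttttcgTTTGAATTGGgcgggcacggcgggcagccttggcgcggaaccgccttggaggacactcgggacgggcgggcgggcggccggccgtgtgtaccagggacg
Hmmr: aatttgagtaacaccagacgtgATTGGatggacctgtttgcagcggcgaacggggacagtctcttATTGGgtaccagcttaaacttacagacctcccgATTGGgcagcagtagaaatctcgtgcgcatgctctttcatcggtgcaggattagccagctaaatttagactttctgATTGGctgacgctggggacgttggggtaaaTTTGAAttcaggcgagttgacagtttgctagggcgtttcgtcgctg
Of the 34 higher members 29 had a promoter in the table. CCAAT was found in 23 of them (79.3%), TTTGAA in 11 (37.9%) and both in 10 (34.5%). Over the 33 promoters of all 40 tested members the shares were 75.8%, 33.3% and 30.3%. Among all promoters they were 34.3%, 16.0% and 5.76%, and among those of tested genes 36.0%, 10.2% and 3.95%.

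DNA repair genes were higher by smaller amounts, 19 of 32 tested against 1 lower, with a median of 0.43. The stricter filter left 11 higher members. Parp1, the sensor of strand breaks, was at 8.63, 8.57 and 8.60 in DCP short and 9.35, 9.48 and 9.22 in DCP long (0.75 ± 0.08, adjusted p = 1.4e-06). Its short rats were below the 9.20 to 9.57 of the other 18 rats and its long rats within that range, so for Parp1 it was the short group that stood apart. Prkdc and Xrcc5, of end joining, differed by 0.74 ± 0.07 and 0.70 ± 0.10. Fancd2, of crosslink repair, was at 5.60, 5.13 and 5.06 against 5.91, 5.98 and 6.45 (0.85 ± 0.21), and its long rats were above the other 18.

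**Figure D3:**
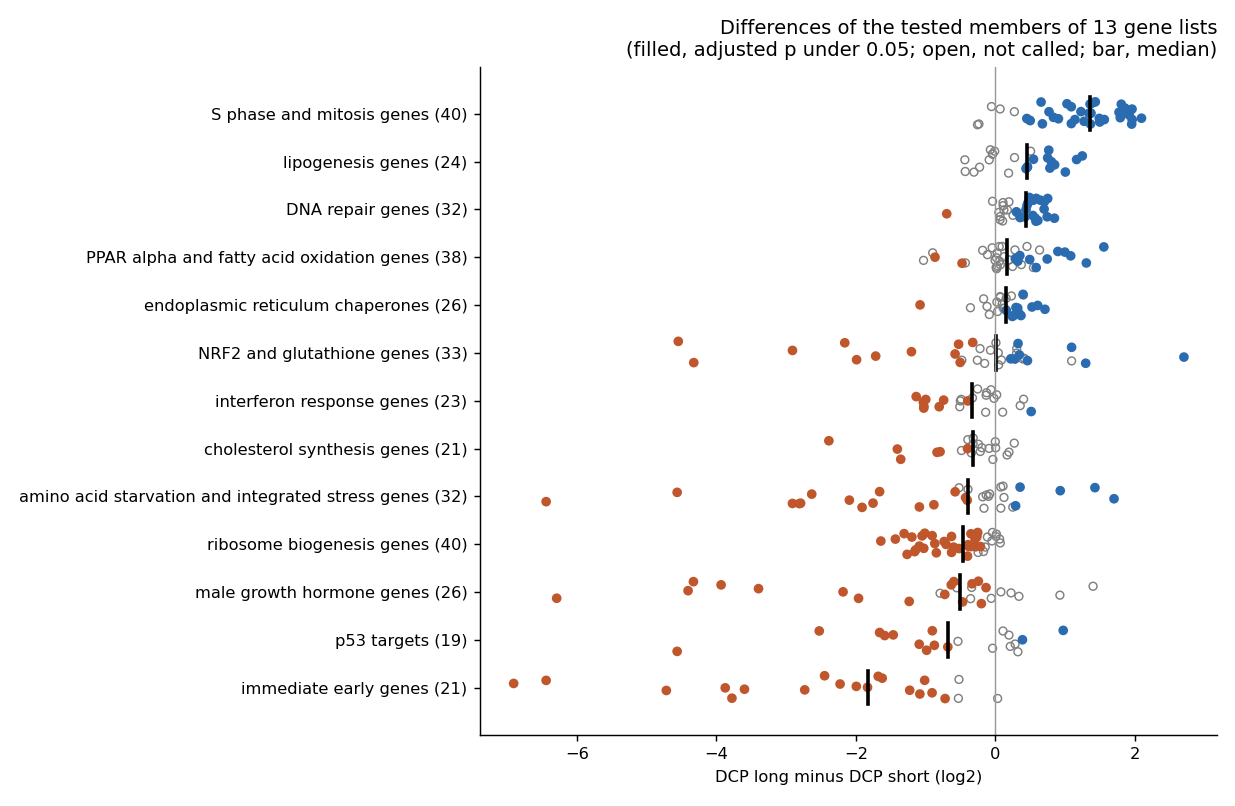
DCP long minus DCP short (log2) of every tested member of 13 gene lists, with filled points for members called at an adjusted p under 0.05, open points for members not called and a bar at the list's median. Immediate early genes centre on -1.83 and S phase and mitosis genes on 1.35, while the NRF2 and glutathione genes spread to both sides of 0.

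Genes of male growth hormone action were also lower in DCP long. Of 26 tested members 16 were lower and none higher, with a median of -0.51. Cyp2c11, the main male-specific cytochrome P450 of rat liver, was at 13.16, 13.35 and 13.42 in DCP short and 11.63, 9.78 and 11.97 in DCP long (-2.18 ± 0.32, adjusted p = 3.22e-05). Obp3, annotated in the alpha-2u-globulin group of male urinary proteins, was at 11.39, 11.83 and 12.39 against 6.18, 4.08 and 6.47 (-6.29 ± 0.43, adjusted p = 2.99e-09). Mup5, a major urinary protein, was at 11.73, 11.80 and 12.03 against 7.67, 6.39 and 8.27 (-4.41 ± 0.28). The other Obp3 probe set gave -7.60. The chosen probe sets of Obp3 and Mup5 are of the type that can bind near-identical family members, so which gene of the family gave the signal is uncertain. Akr1c1, an aldo-keto reductase, was at 9.79, 10.19 and 8.54 against 5.86, 6.18 and 4.68 (-3.93 ± 0.58). Dhrs7l1 was at 9.59, 10.68 and 11.74 against 6.10, 5.34 and 7.60.

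For Cyp2c11, Obp3, Mup5, Akr1c1 and Dhrs7l1 all long rats lay below the range of the 18 rats on other compounds of the test set. Falls in this list also occurred outside the test set. Over the 6 compounds there, the list's median long minus short difference ran from -2.04 to 0.23. It ran from -5.31 to 0.13 for Cyp2c11, from -6.83 to 1.46 for Dhrs7l1 and from -3.08 to 0.98 for Mup5. Whether these differ from DCP was not tested. DCP long replicate 2 had the lowest value for Cyp2c11, Obp3, Mup5 and Dhrs7l1. Higher members, absent here, numbered 2 after quantile normalization, with the stricter filter or without DCP long replicate 1, and 1 without DCP short replicate 3 or with a trend and robust fit. Cyp3a9, of the CAR and PXR list, was also lower, at 7.05, 8.52 and 8.41 against 5.09, 4.02 and 4.29 (-3.52 ± 0.58), with long rats below the filter value of 5.65. Cyp17a1, which makes androgens, went the other way, at 9.01, 8.85 and 8.55 against 10.86, 10.27 and 10.04 (1.59 ± 0.26). Cyp2e1 was at 13.48, 13.49 and 13.32 against 13.40, 13.40 and 13.18 and was not called.

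The AHR list showed a contrast between its members. Cyp1a1, the classical AHR-induced P450, was at 4.32, 4.38 and 4.93 in DCP short and 7.65, 8.10 and 7.24 in DCP long (3.12 ± 0.42, adjusted p = 1.18e-05), above the other 18 rats. The short rats were below the filter value of 5.65, so the size depends on a weak signal. Cyp1a2, usually induced with Cyp1a1, was lower, at 12.16, 12.38 and 12.31 against 11.60, 11.35 and 11.36 (-0.85 ± 0.11, adjusted p = 6.65e-06). Tiparp, another AHR target, differed by -0.40 ± 0.09, with no call in 1 fit of all 65 arrays.

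Several of the largest rises varied strongly among the long rats. Lcn2, the lipocalin released in inflammation and injury, was at 5.11, 5.69 and 5.69 in the short rats and 7.51, 11.57 and 12.59 in the long rats (5.06 ± 1.26, adjusted p = 0.00351). H19, an imprinted noncoding RNA of fetal liver, was at 6.61, 6.11 and 6.36 against 7.30, 8.75 and 10.84 (2.60 ± 0.51). Postn, periostin of the matrix, was at 3.43, 3.55 and 3.50 against 3.81, 6.30 and 7.45 (2.36 ± 0.52). DCP long replicate 1 was the lowest long rat and replicate 3 the highest in Lcn2, H19 and Postn. Ugt2b7, a glucuronosyltransferase, had the opposite order, at 5.05, 4.72 and 4.57 in the short rats and 8.98, 7.89 and 5.46 in the long rats (2.67 ± 0.53, adjusted p = 0.000523). Ugt2b7 also differed by 3.07 between long and short with Urethane. Without DCP long replicate 3 the differences of H19 and Postn were 1.67 and 1.56, and Postn was not called when only the 6 DCP arrays were fitted (adjusted p = 0.0525). Rbp2, a retinol carrier of the cell, was even by comparison, at 3.84, 4.14 and 4.00 against 6.42, 6.53 and 6.07 (2.35 ± 0.12). Short rats were below the filter value of 5.65 for Postn, Ugt2b7 and Rbp2, so these sizes depend on a weak signal. DCP long replicate 1 was below it for Postn as well, within the 3.28 to 4.01 of the other 18 rats.

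Acute phase and inflammation genes had no common direction, with 4 higher and 8 lower of 34 and a median of 0.00. Over all genes 25.8% were higher and 14.2% lower. Apart from Lcn2 the list's largest calls were falls, such as Nfkbiz, an NF-kB cofactor, at 11.38, 11.53 and 11.71 against 7.94, 8.28 and 8.39, and the chemokine Cxcl10 (-1.94 ± 0.31). The weaker of the 2 Nfkbiz probe sets gave only -0.15 at a mean signal of 6.37. Leaving out DCP long replicate 1 reduced the 8 lower members to 3, and leaving out DCP short replicate 1 reduced the 4 higher members to 1. The other DCP rats, left out in turn, gave 4 to 6 lower and 2 to 4 higher members.

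Of 24 lipogenesis genes 12 were higher and none lower, with a median of 0.45. Acaca, the acetyl-CoA carboxylase that commits carbon to fat, was at 9.30, 9.24 and 9.28 in DCP short and 10.14, 10.37 and 10.32 in DCP long (1.00 ± 0.16, adjusted p = 5.9e-05). Its short rats were below the 9.63 to 10.65 of the other 18 rats. Elovl6, the fatty acid elongase, differed by 1.16 ± 0.32, and Scd, the desaturase, was not called (-0.04 ± 0.48). In 1 fit of all 65 arrays 7 lipogenesis genes were called higher, and with only the 6 DCP arrays 1 was called lower.

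Of 38 PPAR alpha and fatty acid oxidation genes 11 were higher, near the share of all genes, and 2 were lower. Against the other compounds 18 of the 38 had a larger value for DCP, beside 19.2% of all genes, and none a smaller one. The list's medians with ME, SN and Urethane were -0.07, -0.16 and -0.28, which enter that contrast. The lower members numbered 4 without DCP long replicate 2, and 1 without DCP long replicate 3, short replicate 1 or short replicate 2. Aqp7, the glycerol channel, was at 6.04, 6.19 and 5.84 against 7.32, 7.74 and 7.68 (1.55 ± 0.17), above the other 18 rats. Vnn1, a pantetheinase that PPAR alpha induces, differed by 1.30 ± 0.30. Of 21 cholesterol synthesis genes 6 were lower and none higher. Insig1, the sterol-regulated brake on SREBP, was at 12.61, 12.81 and 12.52 against 10.56, 10.17 and 10.05 (-2.39 ± 0.35), and Sqle, squalene epoxidase, differed by -1.36 ± 0.31. The lower cholesterol members numbered 12 without DCP long replicate 1.

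Endoplasmic reticulum chaperones were higher in 11 of 26 and lower in 1, by small amounts. Creld2, Ero1b and Manf were higher by 0.71 ± 0.13, 0.61 ± 0.13 and 0.53 ± 0.09, and Dnajb9 was lower (-1.08 ± 0.15). Interferon response genes were lower in 8 of 23 and higher in 1, with a median of -0.33. Against the other compounds only 2 of the 23 had a smaller value for DCP, beside 11.0% of all genes, and 1 a larger one. The list's medians with ME, SN and Urethane were -0.50, -0.27 and 0.20. Mx2, an antiviral GTPase, was at 7.39, 7.09 and 7.63 against 6.88, 6.00 and 5.83 (-1.14 ± 0.29). The lower interferon members numbered 5 without DCP long replicate 2 or DCP short replicate 3.

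Liver transcription factors were higher in 11 of 25 and lower in 4, the latter near the share of all genes. Nr1i3 (CAR), the xenobiotic receptor, was at 7.29, 7.31 and 7.39 in DCP short and 9.37, 8.80 and 9.05 in DCP long (1.74 ± 0.22, adjusted p = 6.94e-06). The short rats lay below the 8.18 to 9.74 of the other 18 rats. Onecut2, a liver developmental factor, also had its short rats below the others, with 8.54, 8.88 and 8.65 against 9.98, 10.03 and 9.83 (1.26 ± 0.15), while Cebpb, a factor of the acute response, was lower (-1.09 ± 0.23). Of the CAR and PXR targets themselves 3 of 19 were higher and 5 lower, beside 25.8% and 14.2% of all genes. Without DCP long replicate 3 or when only the 6 DCP arrays were fitted 5 were higher, and 3 were lower in the latter. Oat, ornithine aminotransferase, led the 6 lower of 37 genes of the urea cycle and of amino acid catabolism, at 12.25, 12.78 and 12.09 against 10.21, 9.32 and 9.68. A further 6 were higher. The share of lower members was near the 14.2% of all genes, and that of higher members was below the 25.8%. The lower members numbered 3 without DCP long replicate 1 and 1 without DCP short replicate 2.

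Of 12 evening output genes of the clock 4 were higher and none lower, a share near that of all genes, and of 5 morning genes 3 were lower and none higher. Against the other compounds 1 evening gene was higher and 1 lower, and 1 morning gene was lower. Dbp, an output of the clock, was at 5.15, 5.86 and 5.27 in DCP short and 6.64, 8.68 and 9.40 in DCP long (2.81 ± 0.84, adjusted p = 0.0119), with an adjusted p of 0.0647 without DCP long replicate 3. All short rats lay below the 6.00 to 9.98 of the 18 others. Bmal1, the core activator, was at 8.26, 7.92 and 8.69 against 7.27, 7.04 and 5.96 (-1.53 ± 0.47, adjusted p = 0.0149), with an adjusted p of 0.0883 without DCP long replicate 3 and 0.0612 without DCP short replicate 3. Per2 (0.05) and Nr1d1 (0.38), also of the clock, were not called. The other Per2 probe set gave 1.58, at a mean signal of 6.78 beside 7.16. Without DCP long replicate 3, 1 evening gene was called higher, 1 lower and 1 morning gene lower. Without DCP short replicate 3, 2 evening genes were higher and 1 morning gene was lower, and 2 evening genes were higher without DCP short replicate 1 or DCP long replicate 2. The hour at which the livers were taken is not given for either group, and its part in the other results was not tested.

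Markers of cell types were used to check the tissue. Hepatocyte markers were high in both groups, their summed level running from 17.76 to 17.83 in the short rats and from 17.76 to 17.84 in the long rats, with 1 of 18 higher and 2 lower. These small counts were not stable: with each DCP rat left out in turn 1 to 2 were higher and 0 to 3 lower (0 without DCP short replicate 2, 1 without long replicate 2 or short replicate 3), and after quantile normalization 3 were higher and 1 lower. Of 17 macrophage markers 1 was higher and 2 were lower, with 1 lower without DCP long replicate 1, long replicate 3 or short replicate 2, and their summed levels overlapped (13.94 to 14.10 and 13.73 to 14.05). Summed levels of stellate cell, endothelial cell, and T, B and NK cell markers overlapped too. Bile duct markers did not, at 9.10 to 9.34 in the short rats and 9.89 to 10.21 in the long rats, with 3 of 5 tested markers higher. Epcam was at 7.08, 7.10 and 7.33 against 8.92, 8.49 and 8.39 (1.43 ± 0.14, adjusted p = 2.89e-07), whereas Krt19, the defining keratin of bile ducts, was not called (0.19). Spp1 was higher by 1.07 ± 0.37, or by 0.30 with no call without DCP long replicate 3, and it also lost its call without DCP short replicate 1 or 3 (0.99 and 1.06). Summed neutrophil markers ran from 8.64 to 8.92 in the short rats and from 8.23 to 8.60 in the long rats, and none of the 3 tested was called, while 1 was called lower without DCP long replicate 1. Summed pancreas markers ran from 10.43 to 10.70 and from 9.87 to 10.17, and of the 3 tested Cela1 was called lower (-0.71 ± 0.19). In whole liver, more cells of a type and more RNA per cell cannot be told apart, and the part of these markers in the other results was not tested.

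The last comparison asked whether long minus short differed between DCP and the mean of ME, SN and Urethane. It called 3084 of 10213 genes (30.2%), 1965 with a larger value for DCP (19.2%) and 1119 with a smaller value (11.0%). The other compounds' own long minus short differences called 1737 genes for ME (17.0%), 496 for SN (4.86%) and 1399 for Urethane (13.7%). Of the S phase and mitosis genes 35 of 40 had a larger value for DCP. Their medians were -0.13 for ME, -0.60 for SN and -0.66 for Urethane, so falls with SN and Urethane add to the contrast. Mki67 differed by -2.07 with Urethane, where its call passed (adjusted p = 0.00392), and by -1.22 with SN, where it did not. Its contrast of 3.19 ± 0.49 (adjusted p = 8.6e-05) therefore exceeds the DCP difference itself.

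Of the immediate early genes 16 of 21 had a smaller value for DCP, with medians of -0.62, -0.49 and 0.11 in ME, SN and Urethane. Maff had a contrast of -6.49 ± 0.38 (adjusted p = 9.09e-10) and Gdf15 of -5.41 ± 0.19 (adjusted p = 3.26e-13). Gdf15 was higher in the long groups of all 3 other compounds, by 0.68, 0.58 and 1.27. Gstp1 differed by -0.20 with ME, 0.08 with SN and 0.16 with Urethane, and its contrast was 2.69 ± 0.37 (adjusted p = 3.08e-05). Cyp2c11 differed by -0.12, -0.05 and -0.24 with those compounds, with a contrast of -2.05 ± 0.37 (adjusted p = 0.000427). For Cdkn1a, Cxcl1, Dbp, Bmal1 and Asns the contrast was not called (adjusted p = 0.796, 0.746, 0.144, 0.26 and 0.549).

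**Figure D4:**
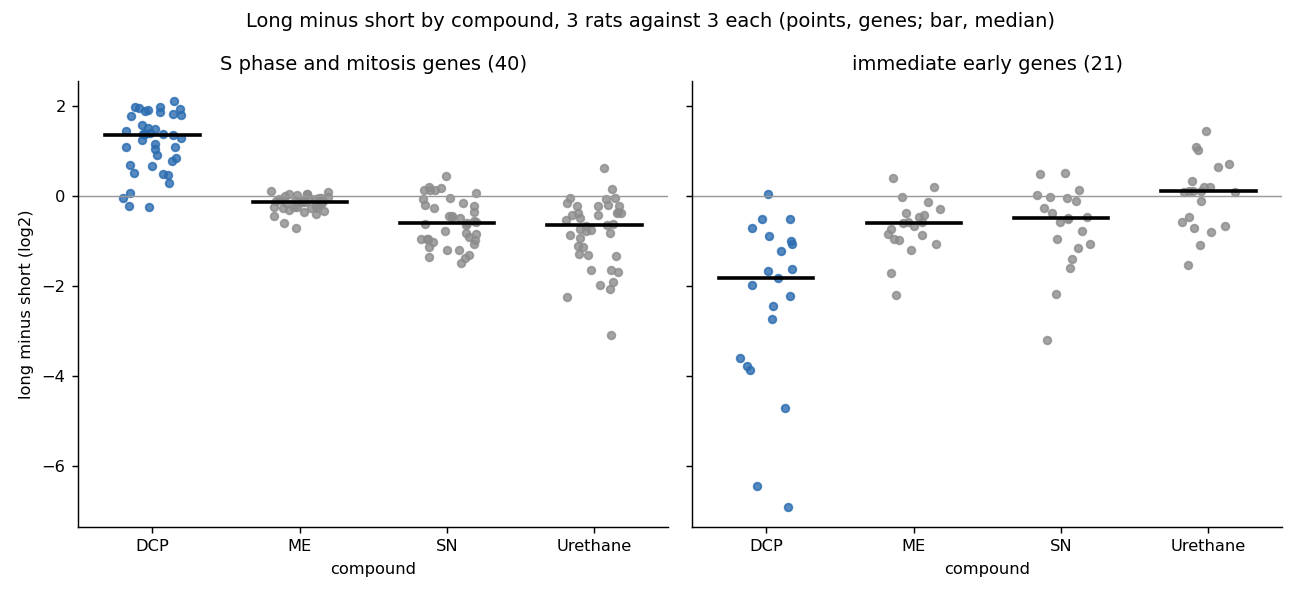
Long minus short (log2) of the tested S phase and mitosis genes (40) and immediate early genes (21) for each test-set compound, 3 rats against 3, with each point a gene and each bar the median. The S phase and mitosis median is 1.35 with DCP and -0.13, -0.60 and -0.66 with ME, SN and Urethane, and the immediate early median is -1.83 with DCP.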

How the data were processed

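Liver RNA of single rats was hybridised to Affymetrix rat arrays, per the labels. The deposited log2 values of 31099 probe sets were made by the authors with RMA (background correction, quantile normalization and summary of probes), per the series' design text; the version is not given in the sources used here. Arrays have no read depth, and 3 rats a group limit the precision. Values of the test set lie on their own scale, so every tested comparison is between its own groups. Only 1 alternative estimated the spread from all 65 arrays. Long minus short differences of the 6 compounds outside the test set were taken within each compound and carry no test. Groups and replicate numbers came from the titles.

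A single gene symbol was listed for 20832 probe sets, several for 436 and none for 9831. The 57 control probes took no part. The probe set with the highest mean over the 65 arrays stood for each of 14217 genes. A gene was tested if above the test-set median (log2 5.65) in at least 2 arrays, which 10213 were. The 24 arrays were fitted with 1 mean per group in limma 3.58.1 (in R 4.3.3; lmFit and plain eBayes, 16 residual and 2.95 prior degrees of freedom), two-sided, with Benjamini-Hochberg adjustment over all tested genes. Simulated arrays with known changes served to test the code.

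The members and the 37 gene lists were chosen with earlier results of these data known. List counts carry no test, and members of a list that pass the filter are those counted. A gene can count in several lists, as Gdf15, Atf3 and Slc7a11 do, so the lists are not separate evidence. Picked by rule were the 12 highest and 12 lowest called genes without overlap of rats and up to 4 called members of each list. The rule also took 38 genes whatever their values, of which 36 were tested. The 8 highest and 8 lowest in the comparison with the other compounds were added. Not all of the 151 picked genes are described in the text. Left out were, among others, Meox2 (2.19) and Hykk (2.05) of the 12 highest. So were Cyp7a1 (0.39), Cpt1a (0.01), Pck1 (-0.28) and Fkbp5 (-0.60), which were not called. Further list members are named where a count is spelled out. Alternatives were other filters, the mean of probe sets, trend and robust, quantile normalization, median centring, all 65 arrays, only the 6 DCP arrays, a replicate block, stricter thresholds and each DCP rat left out. Upstream sequences are from the RefSeq promoter set (build GRCr8), matched by symbol for 8589 of the tested genes. Summaries and plots used Python 3.11.15, pandas 2.3.3 and matplotlib 3.10.9.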

Additional observations from a re-analysis of the deposited data

Results flagged for a closer look

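For 3084 genes the long minus short difference of DCP differed from the mean of ME, SN and Urethane by limma's test of that difference. In the direction of a larger value for DCP, the genes named by rule were Lcn2 (4.147), Ccna2 (3.493), Cyp1a1 (3.2), Mki67 (3.187), Ect2 (3.081), Hmmr (3.064), Kif20b (3.045) and A2m (3.01). In the other direction they were Obp3 (-6.512), Maff (-6.492), Atf3 (-5.492), Gdf15 (-5.407), Zfand2a (-4.964), Poteml2 (-4.742), Mup5 (-4.36) and Dhrs7l1 (-4.249).

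Lcn2 lost this call without any DCP rat other than long replicate 1, with values of 3.64 without long replicate 2, 3.13 without long replicate 3 and 3.95, 4.25 and 4.24 without short replicates 1, 2 and 3 (adjusted p = 0.104, 0.137, 0.0839, 0.0636 and 0.0635). A2m, a protease inhibitor of the rat acute phase, lost it without DCP long replicate 3 (2.41, adjusted p = 0.0561). Within DCP, A2m was at 9.40, 9.13 and 9.05 in the short rats and 10.54, 9.89 and 12.00 in the long rats and was not called (1.62 ± 0.75, adjusted p = 0.0957). It differed by -1.40 with ME, -2.01 with SN and -0.78 with Urethane, which enter the contrast.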

How the results depend on the processing

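The count of genes called between DCP long and DCP short was 4088. It was 510 when a log2 difference of at least 1 was also required, and 3527 to 3717 with each DCP rat left out in turn. The other settings gave 2828 (adjusted p under 0.01) to 4148 (no filter), including 3285 with only the 6 DCP arrays. The count against the other compounds was 3084, fell to 1849 at an adjusted p under 0.01, and was 2610 to 2809 with each DCP rat left out. With the replicate number as a block the counts were 4022 and 3006. The numbers were not taken to pair the rats, since the deviations of same-numbered rats correlated at 0.148, 0.0638 and 0.201, and DCP long replicate 2 correlated best with short replicate 1 (0.113). Of the 151 genes picked by rule, 29 lost the call between DCP long and short under at least 1 setting, 5 gained it and none changed sign with a call. The cause of these changes was not tested, apart from the smaller number of rats or genes that some settings leave.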
